A study of Homo sapiens with 9 samples.

Results

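The AMIGO and LRIG genes encode 2 small families of cell-surface proteins, AMIGO1 to AMIGO3 and LRIG1 to LRIG3, and were taken by symbol from a table of read counts per gene. All 6 symbols were found among the 58735 genes of the table, each once. AMIGO3 had too few counts to be tested, so 5 of the 6 genes entered the tests, which ran over 16812 genes.

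Both families carry leucine-rich repeats and immunoglobulin-like domains outside the cell, a single membrane-spanning segment and a tail inside the cell. AMIGO proteins bind each other across cells and are best known from neurons, while AMIGO2 is also known for supporting cell survival, in part through PDK1 and AKT. LRIG1 is known as a negative regulator of EGFR, MET and other receptor tyrosine kinases and as a mark of quiescent stem cells in squamous epithelium. LRIG2 and LRIG3 are less well understood, and the LRIG proteins have also been tied to signalling by bone morphogenetic proteins (BMPs).

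RNA was measured in bulk in 9 libraries of FaDu, an established line of human squamous carcinoma of the hypopharynx, in 3 groups of 3 libraries that the labels call biological replicates. By their labels, KD_OE cells had AMIGO2 knocked down and CAPN2, the large subunit of the protease calpain-2, overexpressed, KD_NC cells had AMIGO2 knocked down, and NC_NC cells were wild-type normal controls. The labels give no treatment. They also do not name the agents used to knock down and overexpress. All groups come from 1 cell line, so p-values measure only the spread between these cultures. Library totals ran from 15158607 to 19737562 counts, and 3 counts, taken as the floor of detection, were worth 0.149 to 0.203 CPM, the unit of counts scaled to the library total. These limits cover counting error only.

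The label of AMIGO2 knockdown was not borne out by AMIGO2 RNA, as given further on. CAPN2 RNA in KD_OE libraries was only 1.19-fold that in KD_NC libraries, and it was not called over NC_NC libraries (edgeR adjusted p = 0.255). KD_OE, KD_NC and NC_NC are therefore used as names of libraries by their labels, and no direction below rests on a measured knockdown or overexpression. All 8 squamous markers examined, keratins 5, 14 and 6A among them, were expressed, but at different summed levels, 3195 to 3424 CPM in KD_OE libraries, 2522 to 2979 CPM in KD_NC libraries and 6290 to 6630 CPM in NC_NC libraries. KRT5 alone had 1616 ± 121 CPM in KD_OE, 1207 ± 180 CPM in KD_NC and 4437 ± 133 CPM in NC_NC libraries (SD, n = 3), and the 8 markers did not all move with the sum. KRT5, KRT14, KRT6A and SFN were lower for KD_OE over NC_NC (log2 -2.24 to -1.46), CDH1 and DSG3 were higher (0.69 and 0.63), and TP63 and DSC3 were not called. The KD_NC libraries were the least alike within a group. Their mean chi-square per gene between pairs of libraries was 20.9 to 21.5, against 3.01 to 7.52 among KD_OE libraries and 2.69 to 5.04 among NC_NC libraries. The KD_NC libraries enter both the comparison with KD_OE and the comparison with NC_NC, and each of the other groups is likewise used in 2 comparisons, so the 3 sets of fold changes are not independent.

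On the human genome build GRCh38 the 6 genes lie in pairs of 1 AMIGO and 1 LRIG gene on 3 chromosomes. AMIGO1 (ENSG00000181754) spans chromosome 1 from 109504175 to 109509738 on the minus strand, and LRIG2 (ENSG00000198799) spans 113073209 to 113132260 on the plus strand, 3.56 Mb away. AMIGO2 (ENSG00000139211) spans chromosome 12 from 47075707 to 47079951 on the minus strand, and LRIG3 (ENSG00000139263) spans 58872149 to 58920522 on the minus strand, 11.8 Mb away. AMIGO3 (ENSG00000176020) spans chromosome 3 from 49716834 to 49719695 on the minus strand, and LRIG1 (ENSG00000144749) spans 66378797 to 66501263 on the minus strand, 16.7 Mb away. The AMIGO genes are short and code for 493 (AMIGO1), 522 (AMIGO2) and 504 (AMIGO3) amino acids in their longest coding transcripts. The LRIG genes are long and code for 1093 (LRIG1), 1065 (LRIG2) and 1119 (LRIG3) amino acids.

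Exons shared with other genes limit what the counts of 4 of the genes can show. AMIGO3 is a single exon of 2862 bases, of which 2852 bases (99.7%) are also annotated as exon of GMPPB on the same strand. GMPPB encodes a subunit of the enzyme that makes GDP-mannose and had 2797 counts over the 9 libraries. The shared stretch holds all 1512 coding bases of AMIGO3, none of which codes for GMPPB. On the opposite strand RNF123, a ubiquitin ligase gene with 4036 counts, covers 372 bases of AMIGO3. The first exon of AMIGO2 shares 123 bases, 3.11% of its exon sequence, with PCED1B on the opposite strand, which had 511 counts. The 3′ part of LRIG1 shares 907 bases (12.9%) with the mitochondrial carrier gene SLC25A26 on the opposite strand, which had 2380 counts. Within the transcripts of the annotation's basic set that overlap is 131 bases (2.42%). RLIMP2, a pseudogene on the opposite strand, covers 1563 bases (12.5%) of the exon sequence of LRIG2 and had 0 counts. That 0 does not show that the counts of LRIG2 are free of this overlap. AMIGO1 and LRIG3 share no exon sequence. The library kit does not mark strand, and no source used here tells how reads in shared exons were counted.

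**Figure D1:**
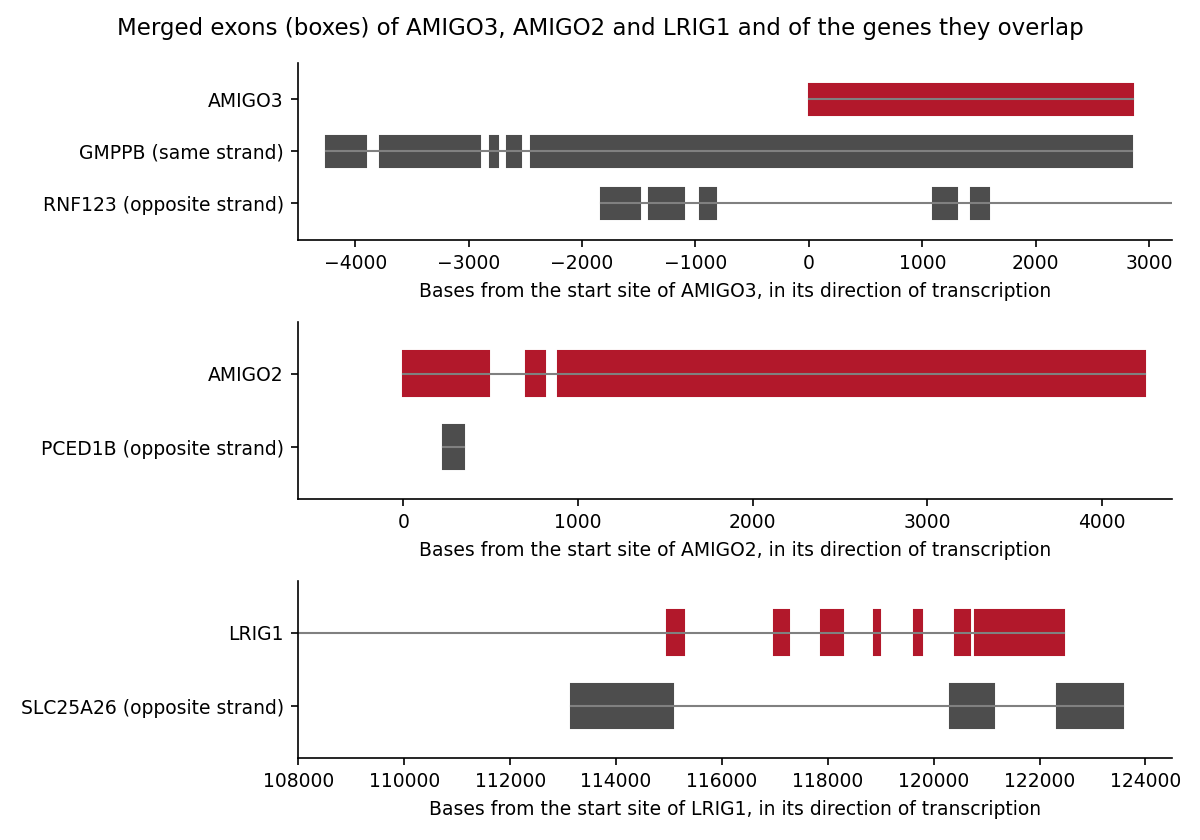
Exons of AMIGO3, AMIGO2 and LRIG1 (red boxes) and of the genes that overlap them (grey boxes), drawn to scale in bases from the start site of each gene in its direction of transcription, with exons of all annotated transcripts merged. AMIGO3 lies in an exon of GMPPB over 2852 of its 2862 bases, whereas AMIGO2 shares 123 bases near its start with PCED1B and LRIG1 shares 907 bases near its end with SLC25A26.

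AMIGO2 and LRIG1 are the genes whose RNA differed between groups, and their promoter windows are shown for that reason. The windows hold 250 bases before and 50 after a start site, are taken from RefSeq on GRCh38.p14 and are written 5′ to 3′ along the gene. All 6 genes had a window. RefSeq gives 4 windows for LRIG1, 2 for AMIGO2 and 2 for LRIG3. For each gene only the window with the start site nearest the deposited one was used. AMIGO2 has its window at chr12:47079902-47080201 on the minus strand, with a start site equal to that of the deposited gene. LRIG1 has its window at chr3:66501072-66501371 on the minus strand, with a start site 142 bases inside the deposited gene. Capitals mark the GC box (GGGCGG) and the CCAAT box (CCAAT), on either strand.
AMIGO2: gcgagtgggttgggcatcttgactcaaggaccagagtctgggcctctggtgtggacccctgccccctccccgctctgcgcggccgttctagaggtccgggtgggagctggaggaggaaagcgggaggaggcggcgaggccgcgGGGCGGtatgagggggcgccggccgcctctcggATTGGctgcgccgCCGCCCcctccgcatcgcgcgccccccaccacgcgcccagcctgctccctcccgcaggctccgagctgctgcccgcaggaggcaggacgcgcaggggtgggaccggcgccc
LRIG1: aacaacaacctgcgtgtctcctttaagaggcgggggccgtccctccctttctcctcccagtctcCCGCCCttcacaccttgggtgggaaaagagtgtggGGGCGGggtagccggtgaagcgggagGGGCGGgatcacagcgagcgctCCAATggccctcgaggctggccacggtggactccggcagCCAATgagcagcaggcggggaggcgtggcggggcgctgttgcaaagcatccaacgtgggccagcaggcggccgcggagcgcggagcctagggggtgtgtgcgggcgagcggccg
Both windows are rich in G and C, 75.3% for AMIGO2 and 69.3% for LRIG1, within the range of the 6 genes, 62.7% (LRIG2) to 75.3%. The AMIGO2 window holds 2 GC boxes and 1 CCAAT box. The LRIG1 window holds 3 GC boxes and 2 CCAAT boxes.

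Each of the 6 windows holds at least 1 GC box, as do 45.0% of the 35116 windows in the RefSeq table, and at least 1 CCAAT box, as do 34.6%. The E-box CACGTG was found once in AMIGO1 and once in LRIG3 and is in 7.26% of all windows. The TATA box TATAAA (in 11.5% of all windows) and the C/EBP-ATF response element TGATGNAAN (3.61%) were not found in these windows. All motifs were searched on both strands. A match is only a match of letters.

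The 5 tested genes kept 1 order of level in all 3 groups. AMIGO3 was left out of this order, since how reads in the exon it shares with GMPPB were counted is not known. Levels of different genes were compared per kilobase, as CPM divided by the deposited gene length, with edgeR's TMM factors (trimmed mean of M values) in the scaling. AMIGO2 was the highest, at 9.85 ± 0.958 in KD_OE libraries, 6.996 ± 0.862 in KD_NC libraries and 6.98 ± 0.437 in NC_NC libraries (CPM per kilobase, SD, n = 3). LRIG2 followed with 4.74 ± 0.368 in KD_OE, 4.33 ± 0.288 in KD_NC and 4.09 ± 0.252 CPM per kilobase in NC_NC libraries. LRIG3 came after it with 2.37 ± 0.287 in KD_OE, 2.47 ± 0.495 in KD_NC and 2.84 ± 0.062 CPM per kilobase in NC_NC libraries. The lower end of the order was held by AMIGO1 and LRIG1. AMIGO1 had 1.47 ± 0.0728 CPM per kilobase in KD_OE, 1.12 ± 0.236 in KD_NC and 1.32 ± 0.234 in NC_NC libraries. LRIG1 had 0.777 ± 0.0524 CPM per kilobase in KD_OE, 0.495 ± 0.136 in KD_NC and 0.452 ± 0.0813 in NC_NC libraries. With the deposited lengths, the libraries of neighbours in this order did not overlap within any group. Per kilobase of the longest transcript the order was the same. On that scale LRIG2 and LRIG3 were close in NC_NC libraries, with means of 4.41 and 4.12 CPM per kilobase. Overlap of libraries was not examined on that scale. Against all 16812 genes tested, AMIGO2 stood above 67.6% of genes per kilobase, LRIG2 above 54.1%, LRIG3 above 42.8%, AMIGO1 above 30.4% and LRIG1 above 17.0%. AMIGO2 was thus above the median gene in these cells, and LRIG1 well under it.

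**Figure D2:**
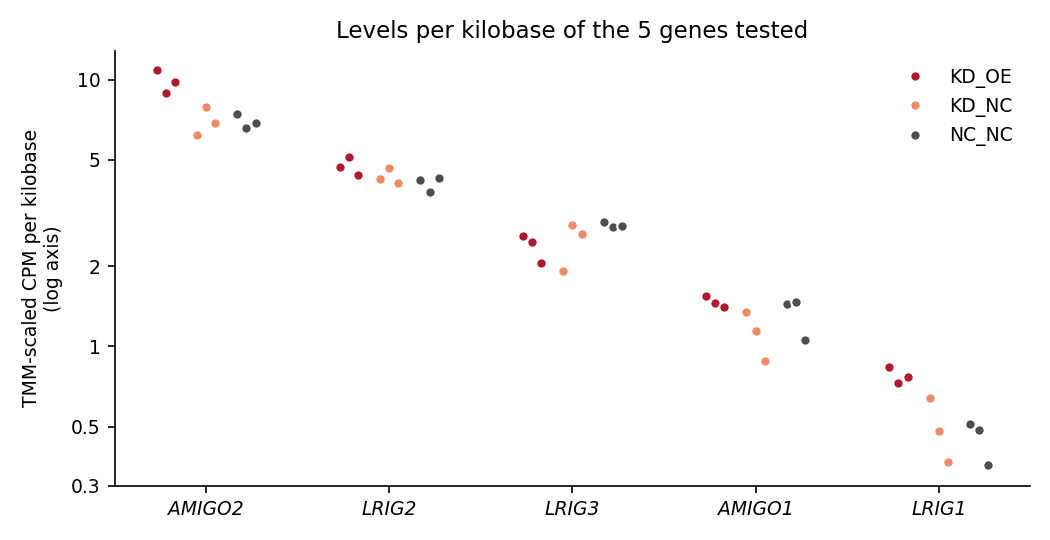
Level of the 5 tested genes per kilobase of deposited gene length (TMM-scaled CPM per kilobase, log axis) in the 9 libraries, with points for libraries grouped as KD_OE, KD_NC and NC_NC. AMIGO2 is highest in every library and LRIG1 is the lowest of the 5 tested genes, with group means of 9.85 and 0.777 in KD_OE libraries.

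AMIGO2 and LRIG1 were higher in KD_OE libraries than in both other groups, and AMIGO1, LRIG2 and LRIG3 were not called in any comparison. A gene was called changed at a Benjamini-Hochberg adjusted p under 0.05 over all genes tested, from the quasi-likelihood F test of edgeR. For KD_OE over KD_NC, 2 of the 5 tested genes were higher and 0 lower, where 23.7% of all genes tested were higher and 25.6% lower, 49.2% together. For KD_OE over NC_NC, 2 of 5 were higher and 0 lower, where 27.9% of all genes were higher and 28.4% lower, 56.3% together. AMIGO2 and LRIG1 were the 2 in both. For KD_NC over NC_NC, 0 of 5 were called by edgeR, where 34.6% of all genes were called, and 0 of 5 had an unadjusted p under 0.05 or were called by DESeq2. With 5 genes tested, these counts do not set the families apart from the other genes. The median log2 fold change over the 5 genes was 0.39 for KD_OE over KD_NC, beside 0.01 over all genes tested. It was 0.21 for KD_OE over NC_NC, beside 0.02, and 0.006 for KD_NC over NC_NC, beside -0.01. Groups whose libraries do not overlap are common in this series, at 54.0% of genes tested for KD_OE over KD_NC, 66.9% for KD_OE over NC_NC and 44.7% for KD_NC over NC_NC.

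**Figure D3:**
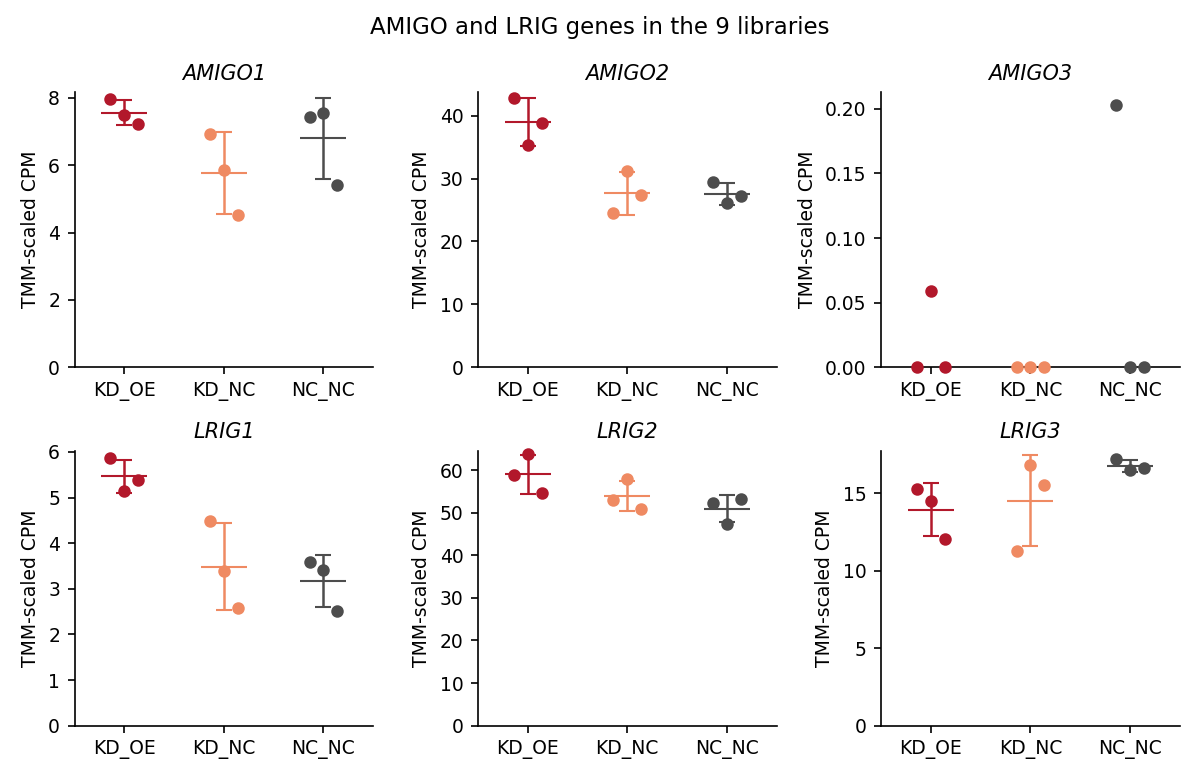
TMM-scaled CPM of the 6 genes in each library (points), with the mean and SD of each group of 3 libraries (bars) except for AMIGO3, which had 4 counts in all. For AMIGO2 and LRIG1 the 3 KD_OE libraries lie above all KD_NC and NC_NC libraries, with means of 39.0 and 5.46 CPM.

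AMIGO2, the gene that the labels say was knocked down, was not lower in either set of libraries so labelled, and it was 1.41-fold higher in KD_OE libraries. AMIGO2 read 42.8, 35.3 and 38.8 CPM in KD_OE libraries, 24.5, 31.3 and 27.3 CPM in KD_NC libraries and 29.5, 26.1 and 27.2 CPM in NC_NC libraries. The KD_OE libraries were all above the other 6, while the KD_NC libraries lay on both sides of the NC_NC libraries. The mean was 39.0 ± 3.79 CPM in KD_OE, 27.7 ± 3.41 CPM in KD_NC and 27.6 ± 1.73 CPM in NC_NC libraries (SD, n = 3), from 420 to 694 counts per library. The log2 fold change was 0.49 ± 0.11 (SE) for KD_OE over KD_NC, with edgeR's adjusted p of 0.0014, and 0.50 ± 0.11 for KD_OE over NC_NC, with an adjusted p of 0.00106. For KD_NC over NC_NC the 95% interval of the log2 fold change ran from -0.23 to 0.25 around 0.006 (adjusted p = 0.971), so a fall larger than its lower bound lies outside the interval. The sign of that small value was negative without KD_NC replicate 2, NC_NC replicate 2 or NC_NC replicate 3 and after the correction for GC content and length. In bulk RNA, fewer cells that express a gene and less RNA of it per cell cannot be told apart. Both rises of AMIGO2 were called in all 16 alternatives tried, with adjusted p-values of 1.18e-05 to 0.0193 against KD_NC and 7.48e-05 to 0.0105 against NC_NC libraries. In size they were ordinary, since 56.3% of all genes tested changed less in absolute log2 fold for KD_OE over KD_NC and 49.1% did for KD_OE over NC_NC. In KD_NC over NC_NC, 0.958% of genes changed less than AMIGO2.

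PCED1B, whose first exon shares 123 bases with AMIGO2, had 3.85 ± 0.548 CPM in KD_OE, 3.62 ± 0.399 CPM in KD_NC and 2.60 ± 0.612 CPM in NC_NC libraries (SD, n = 3). It was higher for KD_OE over NC_NC (log2 0.57 ± 0.23, edgeR adjusted p = 0.0424) and was not called in the comparisons with KD_NC libraries. Its part in the counts of AMIGO2 was not tested. CAPN2, the other gene named by the labels, had 499 ± 1.29 CPM in KD_OE, 418 ± 20.3 CPM in KD_NC and 462 ± 13.9 CPM in NC_NC libraries. Its log2 fold change of 0.26 ± 0.079 for KD_OE over KD_NC was called (adjusted p = 0.012), but was lost with no filtering of low genes (adjusted p = 0.0871) and without KD_OE replicate 1 (adjusted p = 0.0601). For KD_OE over NC_NC it was 0.11 ± 0.079 (adjusted p = 0.255), was called with upper-quartile factors (0.21, adjusted p = 0.0278) and with the compared groups alone (0.12, adjusted p = 0.0389), and was -0.025 after the correction for GC content and length (adjusted p = 0.762).

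AMIGO1, which encodes an adhesion protein of neurons, was not called in any comparison. Its values were 7.96, 7.50 and 7.22 CPM in KD_OE libraries, 6.93, 5.87 and 4.51 CPM in KD_NC libraries and 7.44, 7.54 and 5.41 CPM in NC_NC libraries, from 77 to 129 counts. The KD_OE libraries lay above all KD_NC libraries and overlapped the NC_NC libraries. AMIGO1 had a log2 fold change of 0.39 ± 0.18 for KD_OE over KD_NC, and its adjusted p of 0.0857 (edgeR) fell to 0.0335 without KD_NC replicate 1 and 0.0427 after a correction for GC content and length. It had 0.15 ± 0.18 for KD_OE over NC_NC (95% interval -0.23 to 0.53) and -0.23 ± 0.18 for KD_NC over NC_NC (-0.62 to 0.15).

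AMIGO3, a component of Nogo receptor complexes in rats, had counts at or under the floor of detection. It had 0, 1 and 0 counts in KD_OE libraries, 0, 0 and 0 in KD_NC libraries and 3, 0 and 0 in NC_NC libraries, so no fold change is given. For a gene without shared exons, a count of 0 allows a level of up to 0.149 to 0.203 CPM, depending on the library. How reads in the exon that AMIGO3 shares with GMPPB were counted is not known here, so this limit may not hold for AMIGO3. Absence of AMIGO3 cannot be read from these counts. GMPPB itself had 18.2 ± 1.295 CPM in KD_OE, 18.9 ± 1.45 CPM in KD_NC and 18.0 ± 1.85 CPM in NC_NC libraries and was not called in any comparison.

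LRIG1, the negative regulator of receptor tyrosine kinases, was 1.57-fold higher in KD_OE than in KD_NC libraries and 1.72-fold higher than in NC_NC libraries. LRIG1 read 5.86, 5.14 and 5.38 CPM in KD_OE libraries, 4.49, 3.38 and 2.58 CPM in KD_NC libraries and 3.59, 3.42 and 2.52 CPM in NC_NC libraries. All 3 KD_OE libraries were above the other 6, and the KD_NC and NC_NC libraries overlapped. The counts behind these values were low, 41 to 95 per library. The log2 fold change was 0.65 ± 0.22 for KD_OE over KD_NC (edgeR adjusted p = 0.0184) and 0.78 ± 0.22 for KD_OE over NC_NC (adjusted p = 0.00553). For KD_NC over NC_NC it was 0.13 ± 0.23, with a 95% interval of -0.34 to 0.61 and an adjusted p of 0.685, and the sign was negative without KD_NC replicate 1 or NC_NC replicate 3. The rise over NC_NC libraries was called in all 16 alternatives (adjusted p 7.0e-04 to 0.0408). The rise over KD_NC libraries was called in 13 of 16 (adjusted p 0.00511 to 0.0901) and was lost without KD_NC replicate 2 (log2 0.59, adjusted p = 0.0558), without KD_NC replicate 3 (0.47, adjusted p = 0.0901) and without KD_OE replicate 1 (0.57, adjusted p = 0.0781).

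SLC25A26, which overlaps the end of LRIG1 on the other strand, was lower in the comparisons in which LRIG1 was higher. It had 11.8 ± 0.536 CPM in KD_OE, 18.1 ± 3.55 CPM in KD_NC and 17.1 ± 0.944 CPM in NC_NC libraries (SD, n = 3). Its log2 fold change was -0.62 for KD_OE over KD_NC (edgeR adjusted p = 0.00101) and -0.54 for KD_OE over NC_NC (adjusted p = 0.00264). Its part in the counts of LRIG1 was not tested.

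LRIG2 was the LRIG gene with the most RNA and, of the 5 tested genes, the one that varied least over the 9 libraries, with a root mean square deviation of 0.119 on the log2 scale. LRIG2 stood at 58.8, 63.8 and 54.6 CPM in KD_OE libraries, 53.0, 57.9 and 51.0 CPM in KD_NC libraries and 52.4, 47.4 and 53.2 CPM in NC_NC libraries. The KD_OE libraries lay above the NC_NC libraries by a small margin and overlapped the KD_NC libraries. The log2 fold change for KD_OE over NC_NC was 0.21 ± 0.097 (95% interval 0.009 to 0.42, edgeR adjusted p = 0.0703), was called with upper-quartile factors (0.32, adjusted p = 0.00871) and in a fit of the 2 groups alone (0.22, adjusted p = 0.0178), and had the opposite sign after a correction for GC content and length (-0.11, adjusted p = 0.215). It was 0.13 ± 0.097 for KD_OE over KD_NC (-0.07 to 0.33) and 0.08 ± 0.097 for KD_NC over NC_NC (-0.12 to 0.29), and these signs also turned after that correction. Hence LRIG2 has no stable direction here. Among the 6 genes its longest transcript has the lowest GC content, 42.5%, beside 63.7% for AMIGO3 at the other end.

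LRIG3 was not called in any comparison. LRIG3 had 15.3, 14.5 and 12.1 CPM in KD_OE libraries, 11.2, 16.8 and 15.5 CPM in KD_NC libraries and 17.2, 16.5 and 16.6 CPM in NC_NC libraries. The 3 NC_NC libraries were close to one another and above all KD_OE libraries, while KD_NC replicate 1 was the lowest of the 9. The log2 fold change was -0.06 ± 0.15 for KD_OE over KD_NC (95% interval -0.37 to 0.24, edgeR adjusted p = 0.752), with a positive sign without KD_NC replicate 2 or KD_OE replicate 3. It was -0.27 ± 0.15 for KD_OE over NC_NC (-0.57 to 0.04, adjusted p = 0.131) and -0.20 ± 0.14 for KD_NC over NC_NC (-0.51 to 0.10, adjusted p = 0.296).

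**Figure D4:**
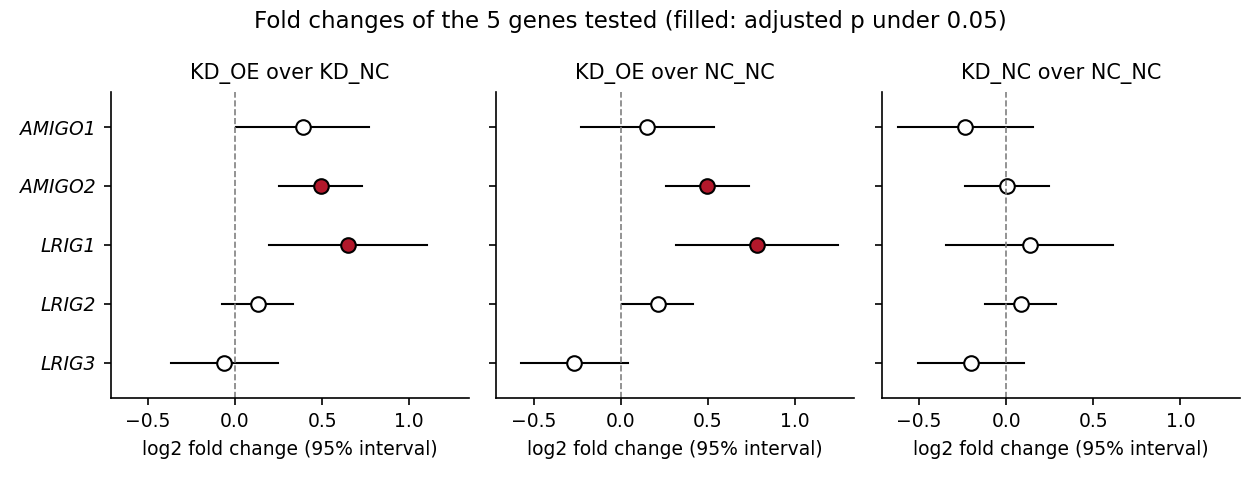
Log2 fold changes of the 5 tested genes (points) with 95% intervals (bars) in the 3 comparisons, from edgeR. AMIGO2 and LRIG1 lie to the right of 0 in both KD_OE comparisons, at 0.49 and 0.65 over KD_NC and 0.50 and 0.78 over NC_NC, and all 5 intervals include 0 for KD_NC over NC_NC.

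The make-up of the LRIG family followed these values. Of the summed LRIG1, LRIG2 and LRIG3 level per kilobase, LRIG1 made up 9.89 ± 0.967% in KD_OE, 6.86 ± 2.23% in KD_NC and 6.12 ± 1.13% in NC_NC libraries (SD, n = 3). LRIG2 made up 60.2 ± 1.98% in KD_OE, 59.5 ± 2.66% in KD_NC and 55.4 ± 1.86% in NC_NC libraries. LRIG3 made up 29.9 ± 1.75% in KD_OE, 33.7 ± 4.88% in KD_NC and 38.5 ± 0.867% in NC_NC libraries. LRIG1 was the smallest component in every group. These shares use the deposited gene lengths and depend on that choice. Ratios of counts within a library, which no scaling between libraries touches, also differed between groups. The ratio of AMIGO2 to LRIG3 counts was 2.80, 2.44 and 3.22 in KD_OE libraries, 2.18, 1.86 and 1.76 in KD_NC libraries and 1.72, 1.58 and 1.64 in NC_NC libraries, with no overlap between any 2 groups. Set against LRIG2, AMIGO2 counts gave ratios of 0.728, 0.553 and 0.710 in KD_OE libraries, 0.462, 0.540 and 0.536 in KD_NC libraries and 0.563, 0.551 and 0.511 in NC_NC libraries. In this ratio KD_OE replicate 2 lay within the range of the NC_NC libraries, and the KD_NC and NC_NC libraries overlapped, while KD_OE and KD_NC libraries did not. The ratio of LRIG1 to LRIG2 counts was 0.0997, 0.0806 and 0.0985 in KD_OE libraries, 0.0847, 0.0584 and 0.0506 in KD_NC libraries and 0.0685, 0.0721 and 0.0474 in NC_NC libraries, so that KD_NC replicate 1 reached into the range of KD_OE libraries. A ratio within a library shows unequal change of its 2 genes and not which of them changed, and the fold changes of LRIG3, none of them called, were below 0 in all 3 comparisons.

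Among receptors that LRIG proteins bind, EGFR, ERBB3 and MET were higher in KD_OE libraries than in both other groups. Of the 11 listed, 6 were tested (EGFR, ERBB2, ERBB3, MET, IGF1R and the netrin and RGM receptor neogenin, NEO1), and ERBB4, RET, PDGFRA, PDGFRB and NTRK2 had 46 counts or fewer in all. For KD_OE over KD_NC, 4 of 6 were higher and 0 lower, with a median log2 fold change of 0.30, where 49.2% of all genes were called. EGFR, the main target of LRIG1, had 1062, 1093 and 1071 CPM in KD_OE, 635, 702 and 482 CPM in KD_NC and 867, 894 and 887 CPM in NC_NC libraries, in 3 ranges that did not overlap. Its log2 fold change was 0.83 ± 0.11 for KD_OE over KD_NC (edgeR adjusted p = 3.83e-06) and -0.54 ± 0.11 for KD_NC over NC_NC (adjusted p = 6.64e-04). NEO1 was likewise higher for KD_OE over KD_NC (log2 0.64 ± 0.10, adjusted p = 3.47e-05) and lower for KD_NC over NC_NC (-0.76 ± 0.10, adjusted p = 1.44e-05). For KD_OE over NC_NC 3 of 6 were higher and 0 lower, with a median of 0.20, where 56.3% of all genes were called. MET, the hepatocyte growth factor receptor, had the lowest adjusted p there (log2 0.92 ± 0.099, adjusted p = 2.49e-07), followed by ERBB3 (0.55 ± 0.11, adjusted p = 2.03e-04). For KD_NC over NC_NC, MET alone was higher (0.59 ± 0.099, adjusted p = 1.40e-04) and EGFR and NEO1 were lower. The median was -0.09, and 34.6% of all genes were called. ERBB2 and IGF1R were not called in any comparison. Without KD_OE replicate 1 the count for KD_OE over KD_NC was 2, and the count for KD_NC over NC_NC was 5 once GC content and length were corrected for.

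Negative regulators of receptor tyrosine kinases other than LRIG1 moved in both directions, and all 18 listed were tested. In KD_OE set against KD_NC libraries, 3 were higher and 6 lower, where 49.2% of all genes were called. The median log2 fold change was -0.21. PTPRJ, a receptor phosphatase, and CBLB, a ubiquitin ligase of the CBL family, were higher (log2 0.87 ± 0.10, edgeR adjusted p = 1.56e-06, and 1.01 ± 0.15, adjusted p = 1.60e-05). SPRED1, an inhibitor of RAS and MAP kinase signalling, and the phosphatase PTPN11 were lower (-0.44 ± 0.096, adjusted p = 7.54e-04, and -0.40 ± 0.084, adjusted p = 6.05e-04). PTPN11 is in fact mostly known to promote signalling of these receptors. For KD_OE over NC_NC, 6 were higher and 5 lower, with a median of 0.10, where 56.3% of all genes were called. ERRFI1, which binds and inhibits the EGFR kinase, was among the higher (1.26 ± 0.084, adjusted p = 4.42e-10), as was CBLB, with 42.7, 38.6 and 33.5 CPM in KD_OE against 7.31, 7.96 and 9.72 CPM in NC_NC libraries (4.59-fold, adjusted p = 1.56e-09). PTPN1, a phosphatase acting on receptors, and CBLC were lower (-1.27 ± 0.087, adjusted p = 6.64e-10, and -0.76 ± 0.13, adjusted p = 8.59e-05). In KD_NC set against NC_NC libraries, 7 were higher and 2 lower, with a median of 0.18, where 34.6% of all genes were called. ERRFI1 (1.24 ± 0.084, adjusted p = 2.86e-09) and the CBL adaptor SH3KBP1 (0.90 ± 0.10, adjusted p = 2.23e-06) were higher, and PTPN1 (-1.11 ± 0.086, adjusted p = 1.62e-08) and CBLC (-0.54 ± 0.13, adjusted p = 0.00401) were lower. CBL itself, which LRIG1 recruits to EGFR, was not called in any comparison.

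BMP receptors, SMADs and ID genes, examined because of the role of LRIG proteins in BMP signalling, had 13 of 15 listed genes tested. SMAD4, the common partner of the receptor-driven SMADs, had 1 count in the 9 libraries together, and ID2 had 46. In KD_OE relative to KD_NC libraries, 5 were higher and 2 lower, where 49.2% of all genes were called. The median log2 fold change was 0.11. Receptors BMPR2 (0.94 ± 0.11, edgeR adjusted p = 1.60e-06) and BMPR1B (0.81 ± 0.13, adjusted p = 4.35e-05) were higher. ID3, a target gene of BMP signalling, fell to 3.52, 2.66 and 3.92 CPM in KD_OE libraries, against 7.51, 6.37 and 11.3 CPM in KD_NC libraries (-1.31 ± 0.22, adjusted p = 5.15e-05), and SMAD5 was lower too (-0.26 ± 0.10, adjusted p = 0.0442). The related target ID1 did not share the direction of ID3, and was among the 5 higher genes. In KD_OE set against NC_NC libraries, 5 were higher, among them BMPR1B (1.04 ± 0.13, adjusted p = 2.23e-06) and ACVR1 (0.71 ± 0.11, adjusted p = 2.98e-05). ID3 alone was lower (-1.42 ± 0.22, adjusted p = 1.57e-05). The median was 0.06, and 56.3% of all genes were called. In KD_NC relative to NC_NC libraries, 1 was higher and 2 lower, with a median of 0.22, where 34.6% of all genes were called. The receptor BMPR1A was higher (0.32 ± 0.11, adjusted p = 0.0318), and BMPR2 (-0.77 ± 0.11, adjusted p = 4.15e-05) and ID1 (-0.54 ± 0.098, adjusted p = 3.28e-04) were lower.

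Genes tied to AMIGO proteins, such as their ligand and kinase partners, showed no common direction, and all 10 listed were tested. For KD_OE over KD_NC, 3 were higher and 2 lower, where 49.2% of all genes were called. The median log2 fold change was 0.04. AGER, the receptor of HMGB1, was higher in all KD_OE libraries (log2 1.62 ± 0.16, edgeR adjusted p = 1.63e-07). It had 12.3, 13.8 and 13.9 CPM there against 4.54, 3.43 and 5.10 CPM in KD_NC libraries. CAPN2, which the list also holds, was the next by adjusted p among the higher genes. The labels name CAPN2 as overexpressed in KD_OE cells, so its place among the 3 higher is not read as a result about AMIGO partners. Whether its rise comes from that overexpression was not tested. The kinase AKT1 (-0.50 ± 0.088, adjusted p = 1.14e-04) and HMGB1, the protein whose older name amphoterin gave AMIGO its name (-0.42 ± 0.084, adjusted p = 3.52e-04), were lower. In KD_OE relative to NC_NC libraries, 3 were higher and 3 lower, with a median of -0.06, where 56.3% of all genes were called. AGER (0.80 ± 0.15, adjusted p = 2.09e-04) was among the higher, and HMGB1 (-0.73 ± 0.084, adjusted p = 6.20e-07) and AKT1 (-0.58 ± 0.088, adjusted p = 1.48e-05) were lower. For KD_NC over NC_NC, 1 was higher and 4 lower, with a median of -0.22, where 34.6% of all genes were called. AGER (-0.82 ± 0.17, adjusted p = 8.97e-04) and AKT2 (-0.33 ± 0.092, adjusted p = 0.00879) were among the lower. PDPK1, the gene of the kinase PDK1, was not called in any comparison. For KD_OE over KD_NC, 3 of the 10 were called without KD_OE replicate 1 or with no filtering of low genes, and 4 to 7 under the other settings. HMGB1 and PTPN11 have near-identical pseudogene copies, so that their counts are uncertain to that extent.

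Other cell-surface genes with leucine-rich repeats were largely at low counts, many being known from neurons. Of 26 genes that combine such repeats with immunoglobulin-like domains, as AMIGO and LRIG genes do, 6 were tested. In KD_OE set against KD_NC libraries, 1 was higher and 2 lower, where 49.2% of all genes were called. The median log2 fold change was -0.33. LRRN2 read 2.96, 2.24 and 2.20 CPM in KD_OE libraries against 0.816, 0.995 and 0.644 CPM in KD_NC libraries (1.57 ± 0.35, edgeR adjusted p = 0.00108), and the synaptic adhesion genes LRFN1 (-1.66 ± 0.31, adjusted p = 2.20e-04) and LRFN4 (-1.18 ± 0.28, adjusted p = 0.00914) were lower. For KD_OE over NC_NC the same 3 genes were called in the same directions, where 56.3% of all genes were called. LRRN2 was at 1.74 ± 0.37 (adjusted p = 4.86e-04), LRFN1 at -1.56 ± 0.32 (adjusted p = 3.64e-04) and LRFN4 at -1.37 ± 0.28 (adjusted p = 0.00363). The median over the list was 0.22. In KD_NC set against NC_NC libraries, 0 of 6 were called by edgeR, where 34.6% of all genes were called. The median was 0.23, and 1 was called without KD_NC replicate 2. LRFN4 shares 21.96% of its exon bases with PC on the opposite strand.

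Of 25 surface genes with leucine-rich repeats and no immunoglobulin-like domain, 11 were tested. In KD_OE relative to KD_NC libraries, 3 were higher and 5 lower, where 49.2% of all genes were called. The median log2 fold change was 0.14. LGR6 (1.57 ± 0.23, edgeR adjusted p = 1.20e-05) and the trophoblast glycoprotein gene TPBG (0.40 ± 0.082, adjusted p = 5.17e-04) were higher, and LGR4 (-1.24 ± 0.13, adjusted p = 2.77e-07) and ELFN2 (ENSG00000166897, -1.42 ± 0.29, adjusted p = 5.30e-04) were lower. LGR4 and LGR6 are both receptors of R-spondins, so that related genes differed in direction. For KD_OE over NC_NC, 4 were higher and 3 lower, with a median of 0.01, where 56.3% of all genes were called. LGR6 (1.46 ± 0.23, adjusted p = 2.01e-05) and TPBG (0.57 ± 0.082, adjusted p = 8.60e-06) were again among the higher, and ELFN2 (-1.10 ± 0.30, adjusted p = 0.00426) and LGR4 (-0.39 ± 0.13, adjusted p = 0.0185) among the lower. In KD_NC relative to NC_NC libraries, 3 were higher and 1 lower, with a median of 0.22, where 34.6% of all genes were called. LGR4 (0.85 ± 0.13, adjusted p = 4.53e-05) and the volume-regulated channel subunit LRRC8A (0.25 ± 0.086, adjusted p = 0.0302) were higher, and FLRT2 (-0.76 ± 0.19, adjusted p = 0.00434) was lower.

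**Figure D5:**
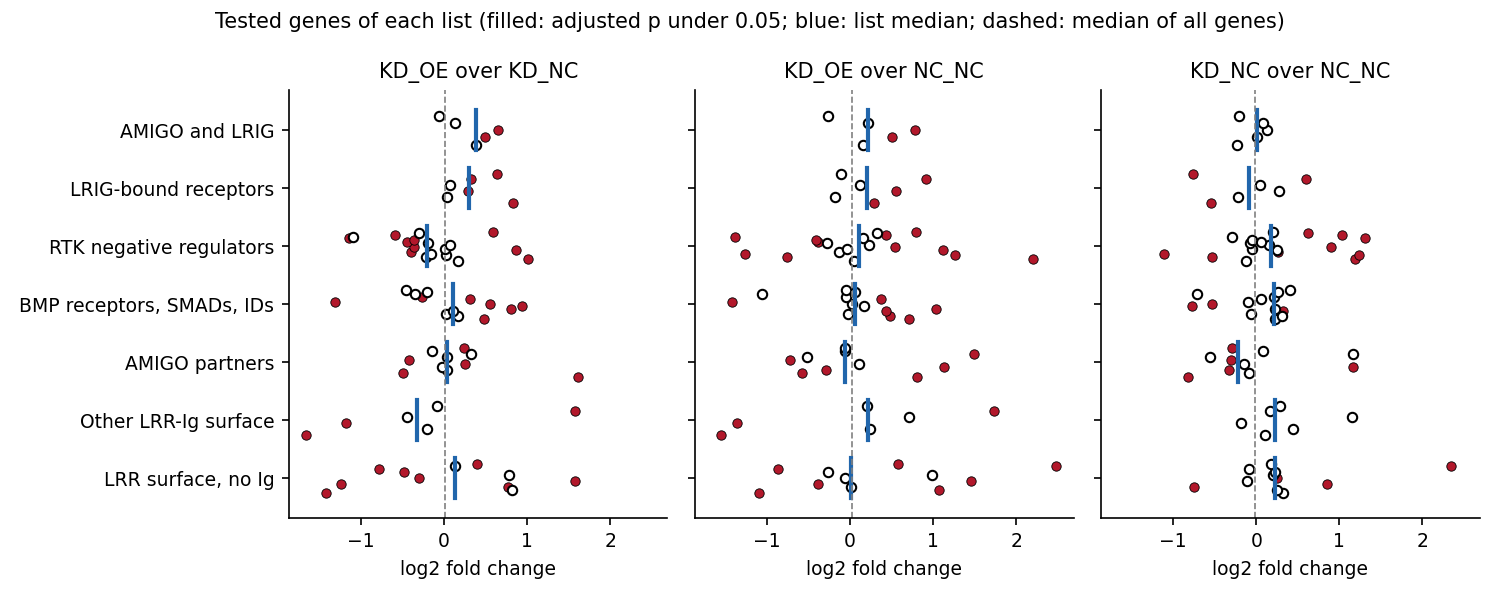
Log2 fold changes of the tested genes of each list (points, filled where called by edgeR) in the 3 comparisons, with the median of the list (blue) and of all genes tested (dashed line). The lists spread on both sides of 0, except that all 6 LRIG-bound receptors lie above 0 for KD_OE over KD_NC, and the medians lie between -0.33 and 0.39.

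Most markers of cell types that a squamous line should lack were too low to be tested, but a few were expressed and differed between groups. Summed endothelial markers, of which 2 of 5 were tested and KDR was at 0, came to 16.2 to 16.5 CPM in KD_OE, 43.3 to 49.5 CPM in KD_NC and 17.6 to 22.5 CPM in NC_NC libraries. Most of that sum is CDH5, which was higher for KD_NC over NC_NC (log2 1.54, edgeR adjusted p = 2.13e-08), while VWF was lower (-1.21, adjusted p = 1.71e-04). Fibroblast markers (1 of 6 tested, LUM at 0) came to 13.5 to 15.6 CPM in KD_OE, 10.96 to 13.98 CPM in KD_NC and 8.19 to 9.73 CPM in NC_NC libraries. Blood and immune markers (1 of 6 tested) came to 5.68 to 9.06 CPM in KD_OE, 18.9 to 25.3 CPM in KD_NC and 14.7 to 18.6 CPM in NC_NC libraries. Neural markers (3 of 6 tested, ELAVL4 at 0) came to 73.8 to 74.2 CPM in KD_OE, 50.4 to 54.5 CPM in KD_NC and 68.0 to 70.5 CPM in NC_NC libraries. MBP, with a mean of 52.5 CPM over the 9 libraries, made up most of that sum. The part of these markers and of the squamous markers in the differences of AMIGO2, LRIG1 and the lists was not tested.

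Genes whose profile over the 9 libraries was most like that of each tested gene were sought among 10366 protein-coding genes of at least 5 CPM (10367 for LRIG1), by the root mean square (RMS) difference of log2 CPM after centring each gene on its own mean. AMIGO2 was nearest to PCMTD2, with an RMS difference of 0.0523, then to TYW5 (0.0795) and WDR66 (0.0803), where its own RMS deviation was 0.259. LRIG1 was nearest to TTLL3 (0.118), with PEAK1 also among its nearest 3 (0.143), where its own RMS deviation was 0.409. The RMS difference depends on the size of changes as well as on their pattern, so it does not show different patterns for AMIGO2 and LRIG1. AMIGO1 was nearest to PFKFB4 (0.107), IL18BP (0.111) and NPIPB12 (0.115), LRIG2 to ELF1 (0.0519), with FIG4 also among its nearest 3 (0.0567), and LRIG3 to ATL2 (0.0713), ETFDH (0.0794) and BCL10 (0.0801). IL18BP shares 15.6% of its exon bases with NUMA1, ETFDH shares 10.9% with PPID, and NPIPB12 belongs to a family of near-identical genes, so that these profiles are uncertain.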

How the data were processed

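The authors deposited 1 table of raw read counts per gene for 58735 genes in 9 FaDu libraries, with gene lengths that equal the merged exons of the GENCODE v29 annotation for 58735 of 58735 genes. HISAT2 2.0.5, StringTie 1.3.3b, featureCounts 1.5.0-p3 and the build hg19 are named, without roles, per the submitters' processing notes, but the deposited coordinates are those of GENCODE v29 on GRCh38 for 58735 genes. A NEBNext Ultra kit was used, per the labels' protocols. The strand setting and the treatment of reads in shared exons or at several places are not stated in any source used here.

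The tests used edgeR 4.0.16 under R 4.3.3. After filterByExpr (minimum count 10, by group) and TMM scaling, 1 robust quasi-likelihood model of all 9 libraries held a term per group and left 6 residual degrees of freedom. Each contrast was given a quasi-likelihood F test with Benjamini-Hochberg adjustment over 16812 genes, and genes were called at an adjusted p under 0.05. These steps were also run on simulated counts with the same spread in all genes and groups and few genes changed. That setting differs from these data, so the run checked the steps and not the error rate here. Replicate numbers were not used as pairs, since deviations of same-numbered libraries from their group means correlated at -0.111 to 0.063. Alternatives were upper-quartile and relative log expression factors, DESeq2 1.42.0, no filter, the compared groups alone, a replicate block, a correction for GC content and length, and each library left out.

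The 6 genes, the lists and the tests were chosen with earlier results of these data known. Besides the 6 genes, CAPN2 and the genes overlapping a member, each list names up to 2 higher and 2 lower called genes per comparison with the lowest adjusted p and a mean of at least 1 CPM. The 3 most similar profiles per gene are also named. Some genes that this rule takes are not reported here. Genes outside this rule are ERBB2, IGF1R, CBL, PDPK1, the single cell type markers and the untested list genes, chosen after their values were seen.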

Additional observations from a re-analysis of the deposited data

How the results depend on the processing

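Across 16 alternatives per comparison, the rises of AMIGO2 in KD_OE libraries and of LRIG1 over NC_NC libraries were called each time. Leaving out 1 library at a time gave log2 fold changes of 0.39 to 0.56 and 0.42 to 0.56 for AMIGO2 over KD_NC and over NC_NC libraries, and of 0.63 to 0.86 for LRIG1 over NC_NC libraries. For KD_OE over KD_NC the number of the 5 genes called then ran from 1 (without KD_NC replicate 2 or 3 or KD_OE replicate 1) to 3 (without KD_NC replicate 1), LRIG1 ran from 0.47 to 0.85, AMIGO1 from 0.23 to 0.52 and LRIG3 from -0.23 to 0.028. LRIG3 had the other sign without KD_NC replicate 2 (0.022) or KD_OE replicate 3 (0.028). For KD_NC over NC_NC, AMIGO2 ran from -0.062 to 0.090, with -0.062 without KD_NC replicate 2, -0.033 without NC_NC replicate 2 and -0.004 without NC_NC replicate 3, and LRIG1 ran from -0.079 to 0.31, with -0.079 without KD_NC replicate 1 and -0.007 without NC_NC replicate 3. None of these values for KD_NC over NC_NC was called.

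The correction for GC content and length gave 0.43 for AMIGO1 in KD_OE over KD_NC (called), -0.0905 for AMIGO2 in KD_NC over NC_NC, and for LRIG2 -0.067 in KD_OE over KD_NC, -0.11 in KD_OE over NC_NC and -0.040 in KD_NC over NC_NC. It gave -0.025 for CAPN2 in KD_OE over NC_NC. Upper-quartile factors gave 0.32 for LRIG2 in KD_OE over NC_NC, which includes a shift of 0.10 in the median of all genes, and the fit of the compared groups alone gave 0.22. With the replicate block, AMIGO2 was 0.49 (edgeR adjusted p = 0.0043) and LRIG1 0.67 (adjusted p = 0.013) in KD_OE over KD_NC, and no call among the 5 genes changed. Of 9 libraries, 1 correlated best with a library of its own number. Among surface genes with leucine-rich repeats and immunoglobulin-like domains, 5 were called for KD_OE over KD_NC with no filter, and for KD_NC over NC_NC 1 with upper-quartile factors or no filter and 2 after the GC correction. The causes of these shifts were not tested. Low counts limit AMIGO3 and LRIG1 most.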
